A study of Mus musculus with 4 samples.

Results

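The comparison described here is that of cultured hepatocytes lacking ChREBP with wild-type (WT) hepatocytes in medium without fructose. It rests on 2 of the 4 arrays of the study, 1 for each genotype, and on the log2 difference, knockout (KO) minus WT, of every named gene. Of 22180 named genes, 10720 were detected, meaning that they lay above a background level of 4.764 (log2) on at least 1 of the 2 arrays. That level is the 95th percentile of 1105 olfactory receptor genes, which are taken as silent in liver cells. Both groups were primary hepatocytes of 2-month-old male mice, held for 16 h in serum-free medium. The other 2 arrays held the same genotypes after 16 h with 25 mM fructose and are given beside the control arrays where they add a second reading. The labels do not give the mouse strain of origin, the kind of Chrebp allele, the number of mice behind an array, or whether both media of a genotype used cells of the same mice. With 1 array a side there is no spread between replicates, so differences are described by size and rank, with no test.

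ChREBP, encoded by Mlxipl, is a transcription factor that pairs with MLX and binds carbohydrate response elements near genes of glycolysis, fructose breakdown and fatty acid synthesis. It is activated by sugar metabolites, so its targets are usually studied under sugar feeding. Several genes below belong to a different system, the interferon response, in which interferons act through surface receptors and transcription factors on interferon-stimulated response elements (ISREs). Hepatocytes, Kupffer cells (the resident macrophages of the liver) and sinusoidal endothelial cells all carry out that response. In cells isolated from liver, a lower level of a gene may mean fewer cells of a type or less RNA per cell, and these arrays cannot tell them apart.

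The hepatocyte markers stood at the same level in both genotypes. Of 18 listed, 15 were measured and 14 detected, none differed by 1.5-fold, and their summed linear intensity was 36601 in WT and 36912 in KO. Albumin (Alb) stood at 12.63 on both control arrays. The median of all detected genes differed by -0.01 between the arrays, and their levels correlated across genes at r = 0.992 (10720 genes, which are not independent replicates).

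Few genes differed by much, and more of them were lower in KO than higher. At 2-fold, 21 detected genes (0.196%) were lower and 4 (0.0373%) higher. At 1.5-fold, 118 (1.10%) were lower and 51 (0.476%) higher. Of all detected genes, 52.0% lay below 0 and 48.0% above it, so the excess of lower genes was seen mainly in the tail. The deposited values are normalized to make the arrays' distributions alike, so a shift of the bulk could not be seen. The share that was 1.5-fold lower went from 1.64% of 3347 genes at a mean level up to 6 to 0.411% of 487 genes above 10, so dim genes make up more of the tail. Counting all 22180 genes, dim ones included, 138 (0.622%) were 1.5-fold lower and 69 (0.311%) were 1.5-fold higher.

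Some idea of the error of a single difference comes from within the arrays. The olfactory receptor genes, taken as silent, scattered with an SD of 0.17 (log2), and 2 of 1105 were 1.5-fold lower, 3 were 1.5-fold higher and 0 reached 2-fold. For 270 genes with 2 detected probe sets, the median gap between the 2 readings of the difference was 0.18 and 11 gaps exceeded 1.5-fold. The central 95% of all detected genes ran from -0.45 to 0.36. These measures hold the error of the array and probes and leave out the spread between cultures or mice, which is not known here.

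**Figure D1:**
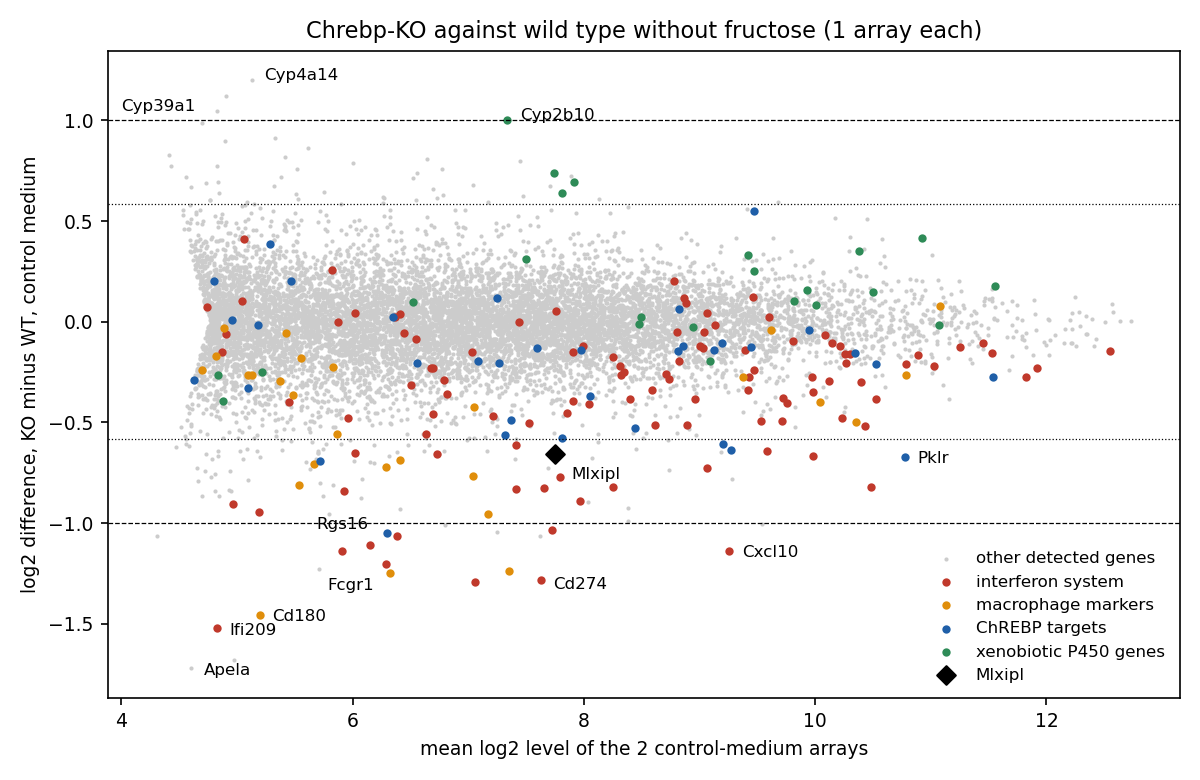
Each point is 1 of the 10720 detected genes, with the mean log2 level of the 2 control arrays on the x axis and the log2 difference KO minus WT on the y axis. Dotted lines mark 1.5-fold and dashed lines 2-fold. The cloud is centred near 0, with 21 genes below the lower dashed line and 4 above the upper one.

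Mlxipl itself stood at 8.08 in WT control and 7.42 in KO control, and at 8.43 in WT fructose and 7.37 in KO fructose. Both KO arrays were below both WT arrays, by 0.66 in control medium (1.58-fold) and 1.06 in fructose medium. The KO arrays stayed well above background, and the sources used here do not say which exons are deleted or where the probes lie, so the value checks the label in direction only. Its 12 neighbours on either side along the chromosome, taken from the gene order of a RefSeq table, include 22 with a value. Of these, 12 were detected, between -0.34 for Pom121, a nuclear pore protein, and 0.36 for Abhd11, a mitochondrial hydrolase. None reached 1.3-fold in control medium, and the median neighbour was at -0.05. In fructose medium these neighbours ran from -0.28 for Limk1 to 1.97 for Cldn4, with Cldn3 at 0.61 and Rhbdd2 at 0.51. The partner Mlx differed by -0.03 in control medium and by 0.81 in fructose medium. Mlxip, which encodes the related sugar sensor MondoA, stood at 6.95 in WT and 6.63 in KO control, a difference of -0.31, and differed the other way in fructose medium at 0.55.

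The listed ChREBP targets were slightly lower in KO without fructose. Of 43 genes, 38 were measured and 35 detected. Of those 35, 5 (14.3%) were 1.5-fold lower, against 1.10% of all detected genes, none was 1.5-fold higher, and 27 were below 0. Their median was -0.15, beside -0.01 for all detected genes. The same list in fructose medium had a median of -0.98, from the separate pair of fructose arrays. With the 3 dim members included, the control median was -0.14.

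Pklr, the liver pyruvate kinase and a textbook ChREBP target, is shown first because its promoter holds the carbohydrate response element. The 250 bases before its start site, at chr3:89136373-89136622 on the plus strand (GRCm38.p6, RefSeq), read as follows, with capitals marking the match to a relaxed form of paired E boxes, CANGNG and CNCNTG with any 5 bases between them, searched for on both strands.
Pklr: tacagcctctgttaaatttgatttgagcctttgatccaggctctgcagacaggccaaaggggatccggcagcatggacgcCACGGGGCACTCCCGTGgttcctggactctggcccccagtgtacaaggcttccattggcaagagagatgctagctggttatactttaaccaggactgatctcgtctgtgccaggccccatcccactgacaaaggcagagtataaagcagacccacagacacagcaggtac
The match lies from 170 to 154 bases before the start site. Of 32851 promoters in the RefSeq table, each 300 bases long, 183 (0.557%) hold this form, and of the promoters of the listed targets 1 of 33 does. The match is a description of these letters, and no match in the other windows says nothing about binding.

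Among targets for sugar entry and glycolysis, 8 were detected with a median of -0.17 and 2 were 1.5-fold lower. Pklr stood at 11.11 in WT control, 10.44 in KO control, 10.79 in WT fructose and 9.39 in KO fructose, so it was lower by 0.67 without fructose and by 1.39 with it. Khk, ketohexokinase, which phosphorylates fructose in the first step of its breakdown, stood at 9.50, 8.90, 10.30 and 9.47 in the same order. Its difference was -0.61 without fructose, and KO fructose lay at the level of WT control. These 2 enzymes account for both 1.5-fold calls in the group.

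The fatty acid synthesis targets had a median of -0.24 over 10 detected genes, with 1 of them 1.5-fold lower. That gene was Me1, the cytosolic malic enzyme that supplies NADPH, at 9.59 in WT control, 8.96 in KO control, 10.43 in WT fructose and 9.02 in KO fructose. Thrsp, a regulator of lipogenesis in liver, differed by -0.58 without and -1.17 with fructose. The central enzymes of the pathway differed far less without fructose: Fasn, fatty acid synthase, by -0.21, Acly, ATP citrate lyase, by -0.15, and Acaca, acetyl-CoA carboxylase, by 0.03. In fructose medium the same 3 genes differed by -1.68, -2.20 and -1.99. A separate lipogenesis list, which shares 9 genes with the targets, had a median of -0.19 over 16 detected genes without fructose and -0.60 with it. The 7 detected targets for lipid export and storage had a median of -0.11, with none at 1.5-fold lower, and 1 of them, Gpam, which starts triglyceride synthesis, was at 0.55.

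The secreted factors and regulators among the targets had a median of -0.32 over 10 detected genes, with 2 at 1.5-fold lower. Rgs16, a brake on G protein signalling and the only ChREBP target among the 15 lowest genes, stood at 6.82 in WT control, 5.77 in KO control, 9.97 in WT fructose and 6.62 in KO fructose. Klf10, a zinc finger regulator of sugar metabolism, stood at 6.06, 5.37, 9.39 and 5.99 in the same order. Both were lowest on the KO control array. Txnip, which restrains glucose uptake, stood at 7.60, 7.04, 11.48 and 8.30, with a difference of -0.56 without fructose and -3.18 with it. Fgf21, a hormone of the liver, was level without fructose, at 4.95 in WT and 4.96 in KO, while its fructose difference was -3.50.

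**Figure D2:**
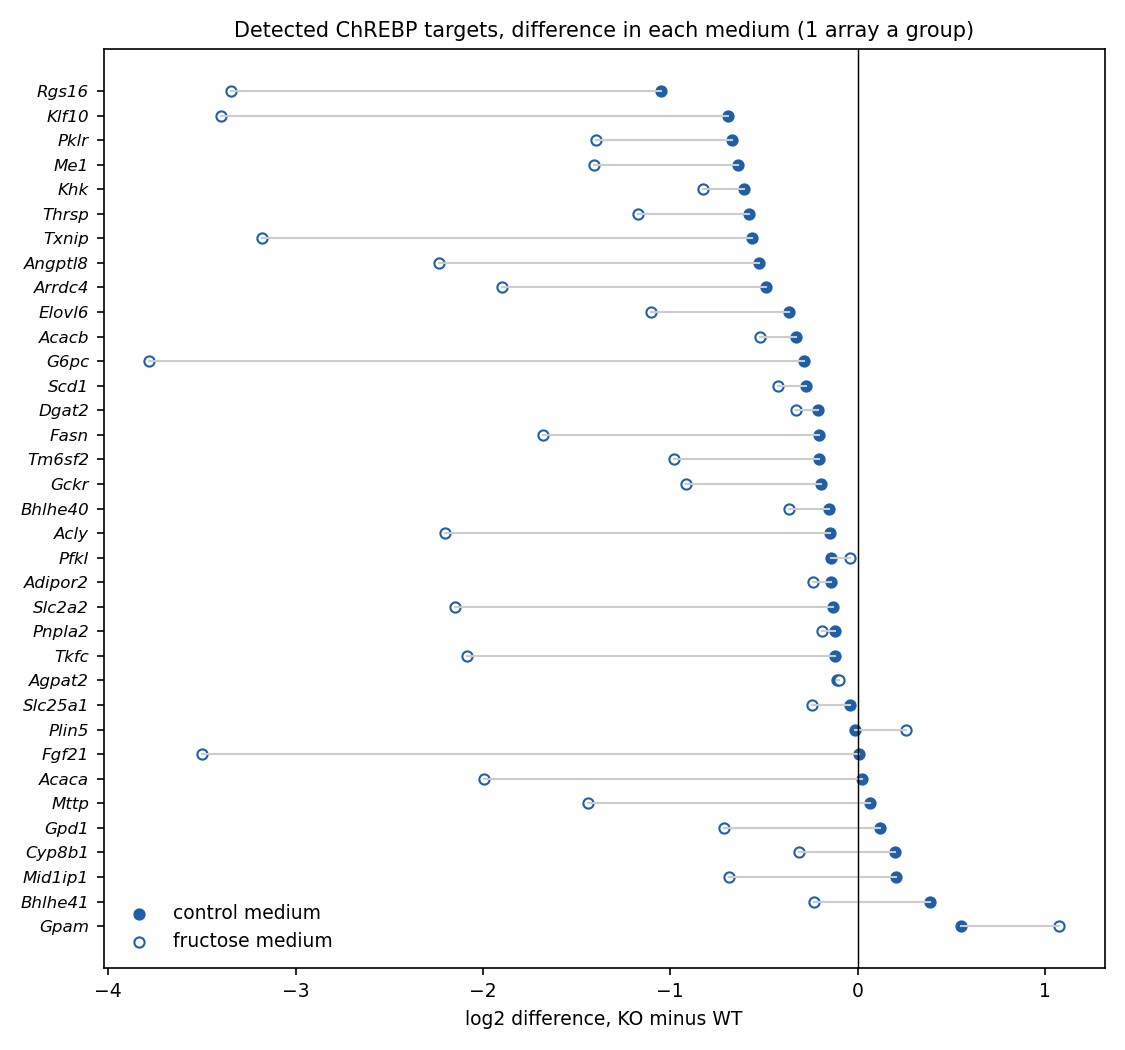
Each listed ChREBP target has its log2 difference KO minus WT in control medium beside that in fructose medium. Rgs16 is the lowest in control medium at -1.05, and Fgf21, at 0.01 in control medium and -3.50 in fructose medium, has the widest gap among the genes described in the text.

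The lowest genes in KO were mostly genes of the interferon response and of macrophages. By the naming rule, which leaves out predicted genes and small RNAs, the 15 lowest ran from -1.72 to -1.05, and 8 of them are in the interferon list, 3 in the macrophage list, 1 among inflammatory mediators and 1 among ChREBP targets. The next genes, just outside, were Wdfy1 and Oas1g at -1.04. For 4 of the 15 the KO array lay below background, so their fold is a lower bound. All 15 were also lower in KO on the separate fructose arrays, 13 of them by 1.5-fold. Beside this, 47.5% and 2.86% of the 10688 genes detected there were. Among the 13, Moxd1 lay below background in WT and KO fructose. Cd180 lay below it in KO fructose, so its fold there was at least 1.27.

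**Figure D3:**
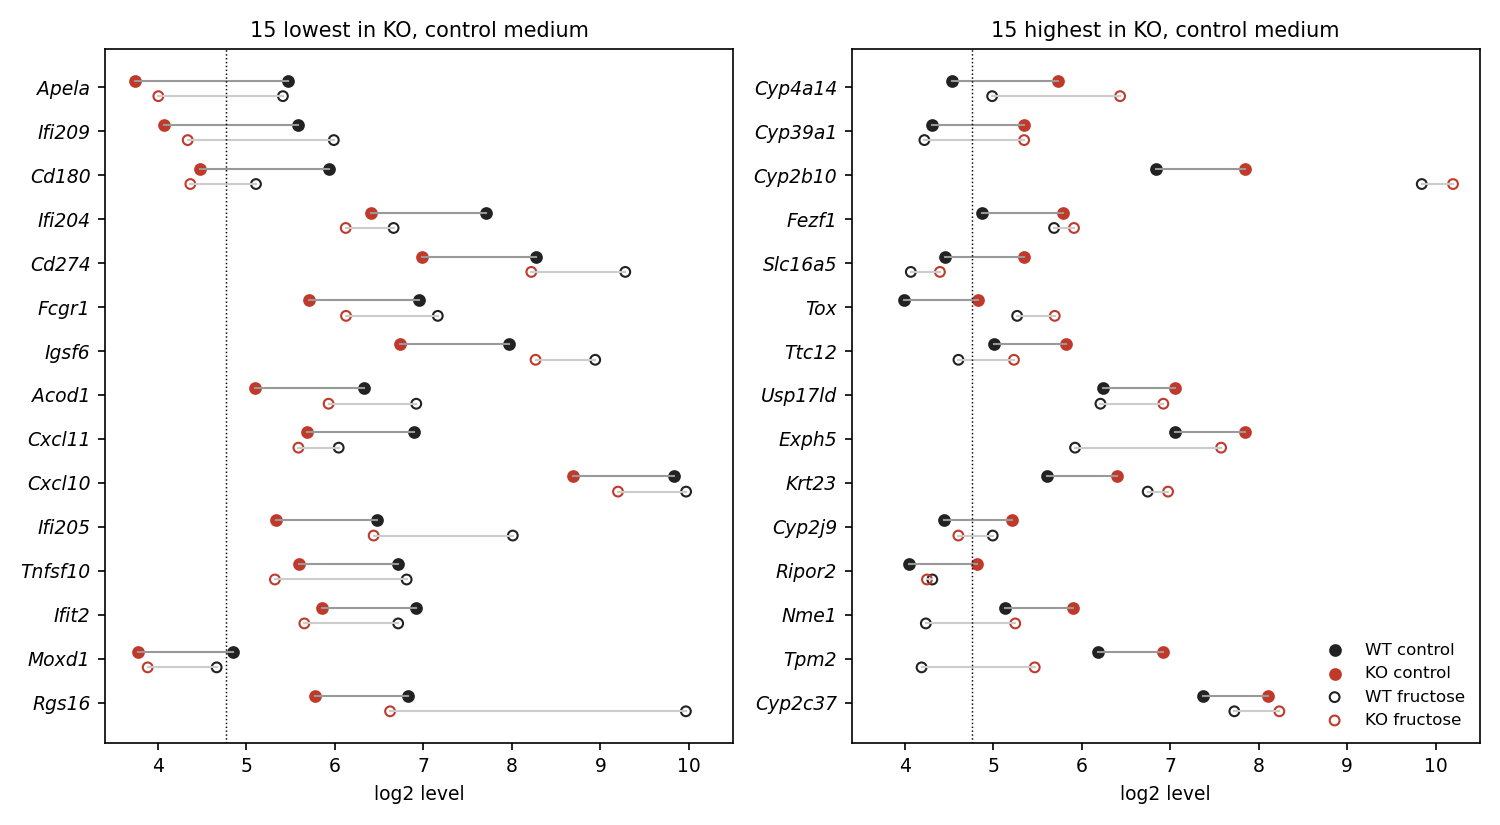
Log2 levels are drawn for the 15 lowest and 15 highest genes on all 4 arrays, with filled symbols for control medium, open symbols for fructose medium and a dotted line at the background of 4.764. For all 15 lowest genes the KO symbol lies left of the WT symbol in both media, and 13 of the 15 highest keep their order in fructose medium.

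The interferon list held 158 genes, of which 138 were measured and 110 detected. Of those 110, 25 (22.7%) were 1.5-fold lower in KO and none was higher, against 1.10% and 0.476% of all detected genes. At 2-fold, 9 were lower, beside 0.196% of all detected genes. The median was -0.28, 95 were below 0, and the summed linear intensity in KO was 0.83 of that in WT. With the 28 dim members included, 27 of 138 were 1.5-fold lower, beside 0.622% of all genes, and the median was -0.23.

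The difference was uneven between the steps of the pathway. At the top, 4 detected interferon ligand genes had a median of 0.01 and 8 receptor and kinase genes a median of -0.07. None of either group was 1.5-fold lower. Of the 9 ligand genes measured, 5 were dim, with a median difference of 0.06 over all 9. Their median level was 4.10 in WT and 4.25 in KO control, below background, so a difference between ligands could be missed. The 10 transcription factors and feedback genes had a median of -0.12, also with none at 1.5-fold lower. Irf9, a DNA-binding factor of the response, was at -0.38 in both media, Irf1 at -0.36 and Irf7 at -0.17. Among 9 nucleic acid sensors and adaptors the median was -0.26 and 1 was 1.5-fold lower. This was Tlr3, the endosomal sensor of double-stranded RNA, at 8.66 in WT control, 7.84 in KO control, 8.07 in WT fructose and 7.62 in KO fructose.

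The antiviral effectors were the largest group, with 41 detected genes, a median of -0.39, 14 at 1.5-fold lower and 39 below 0. Ifit2, whose protein binds viral RNA, stood at 6.92 in WT control, 5.85 in KO control, 6.71 in WT fructose and 5.65 in KO fructose, so both KO arrays lay below both WT arrays. Rsad2, the antiviral enzyme viperin, stood at 10.89, 10.07, 11.31 and 10.92. Mx2, a dynamin-like antiviral GTPase, stood at 7.83, 7.0, 8.02 and 7.44. For Ifit2 and Mx2 the lower genotype was the same in both media and the 2 genotypes did not overlap, whereas Rsad2 in KO fructose was level with WT control. The oligoadenylate synthetases, which activate RNase L, were different: Oas3 stood at 8.41 in WT control, 7.52 in KO control, 6.80 in WT fructose and 6.83 in KO fructose, and Oas1g at 8.24, 7.20, 6.28 and 6.12. For both, the genotypes were apart without fructose and close together with it.

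Members of the p200 family, which bind DNA and are induced by interferon, were among the lowest of all, but their sequences are alike and probes may be shared. Of 8 measured, 3 were detected, all 1.5-fold lower, with a median of -1.29. Over all 8 the median was -0.78 and 5 were 1.5-fold lower, and Ifi209 passed as detected through the WT array alone in control medium. Ifi204 stood at 7.70 in WT control, 6.41 in KO control, 6.66 in WT fructose and 6.12 in KO fructose. Ifi205 stood at 6.47, 5.34, 8.01 and 6.44, and Ifi209 at 5.59, 4.06, 5.99 and 4.34, the last at least 1.77-fold lower without fructose. The 11 detected interferon-inducible GTPases, which attack the vacuoles of microbes, were all below 0 with a median of -0.48 (-0.38 over all 14 measured), and 2 were 1.5-fold lower, Gbp10 at -0.72 and Gbp11 at -0.61.

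The chemokines and surface ligands of the list had a median of -0.81 over 8 detected genes, with 4 at 1.5-fold lower, and of -0.41 over all 11 measured. Cxcl10, which draws T cells through the receptor CXCR3, stood at 9.83 in WT control, 8.69 in KO control, 9.97 in WT fructose and 9.20 in KO fructose. Cxcl11, a ligand of the same receptor, stood at 6.89, 5.69, 6.04 and 5.59. Cd274, the checkpoint ligand PD-L1, stood at 8.27, 6.99, 9.28 and 8.22, and Tnfsf10, the death ligand TRAIL, at 6.71, 5.60, 6.81 and 5.32. These 4 were lower in KO in both media. The 16 antigen presentation genes differed less, with a median of -0.12 and 1 at 1.5-fold lower. That was the class II chain H2-Ab1 at -0.83, beside -0.40 for its partner H2-Aa and 0.04 for H2-Eb1.

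**Figure D4:**
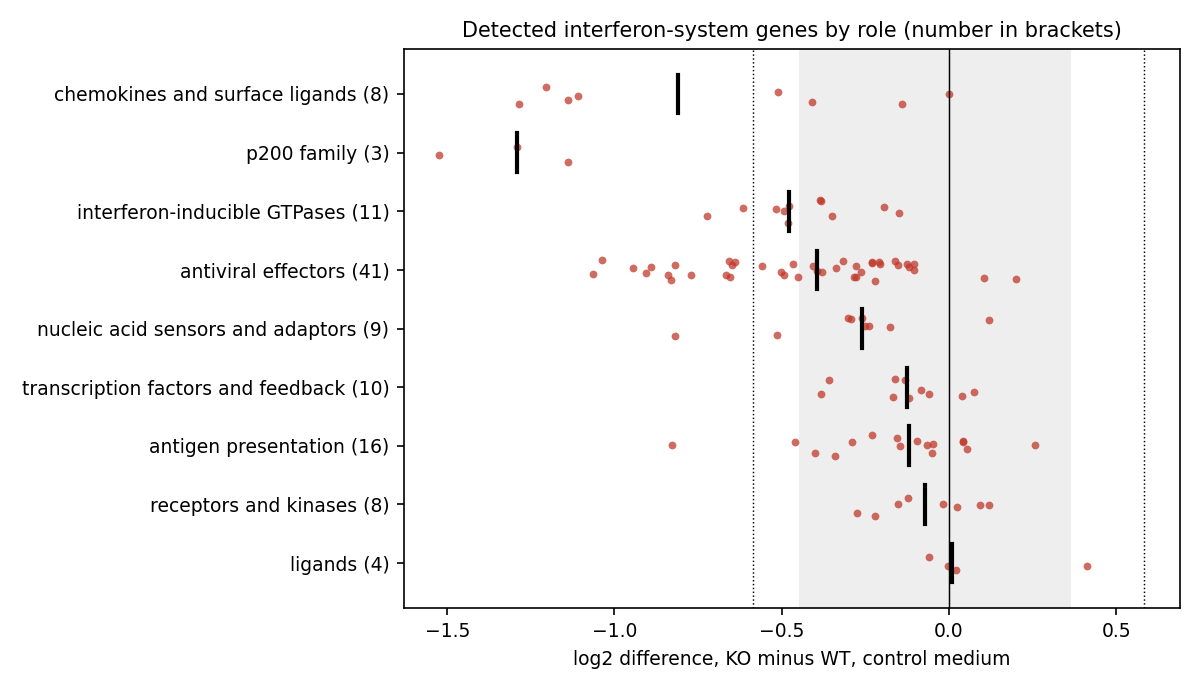
Detected members of the interferon list are drawn by role, with the log2 difference KO minus WT in control medium on the axis, black bars at the medians, dotted lines at 1.5-fold and a grey band for the central 95% of all detected genes. Ligands, receptors and transcription factors have medians from -0.12 to 0.01, while the p200 family is at a median of -1.29 and the chemokines and surface ligands are at -0.81, or -0.78 and -0.41 with the dim members that are not drawn.

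The promoters of interferon genes were searched for an ISRE, spelled GAAA, any 2 bases and GAAA on both strands, because it is an element through which interferons act. Of all 32851 promoters 3.44% held it, and of the promoters of detected interferon genes 40 of 99 (40.4%) did. Of the 15 lowest genes 13 had a promoter in the table and 2 held the form, and the bases before their start sites are shown with the match in capitals, both on the minus strand of GRCm38.p6 from RefSeq, at chr5:92348890-92349139 and chr1:174031756-174032005.
Cxcl10: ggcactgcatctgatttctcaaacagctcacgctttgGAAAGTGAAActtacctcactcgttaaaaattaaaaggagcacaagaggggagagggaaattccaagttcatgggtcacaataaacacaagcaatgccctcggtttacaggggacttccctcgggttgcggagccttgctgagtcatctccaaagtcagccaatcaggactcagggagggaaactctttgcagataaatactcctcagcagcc
Ifi205: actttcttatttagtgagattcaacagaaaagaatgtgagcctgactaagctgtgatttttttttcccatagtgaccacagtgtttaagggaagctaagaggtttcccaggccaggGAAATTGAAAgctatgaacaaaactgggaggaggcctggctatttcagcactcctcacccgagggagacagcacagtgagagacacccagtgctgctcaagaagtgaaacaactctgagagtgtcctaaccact
The match starts 213 bases before the start site of Cxcl10 and 134 bases before that of Ifi205. Ifi205 holds a further match after its start site, outside the bases printed. For 4 of the other lower effector genes, 1 match each is shown with 6 bases on either side. Ifit1 and Ifit3 each hold a further match that is not shown, and the lower genes Ifit3b, Oas1g and Slfn5 also hold the form. The capitals of the matches are alike because the search fixed them. Those of Ifit1, Ifit3 and Rsad2 are printed as the strand opposite to the gene reads, and that of Oas3 as the gene's own strand reads.
Ifit1: agactgGAAAGTGAAActgaag
Ifit3: gaagagGAAAGTGAAActtacc
Oas3: ggaggaGAAAACGAAAgtgaag
Rsad2: ttttctGAAAATGAAAgttgga
By gene, 9 of the 16 interferon genes that were 1.5-fold lower and had a promoter in the table held the form (56.2%), as did 27 of 69 other detected interferon genes (39.1%). Outside the list, 4 of 70 genes that were 1.5-fold lower held it (5.71%), namely Gm12250, Phf11b, Srgn and Tgfbi. By gene, the share over all detected genes with a promoter was 3.68%. The windows of Cd274 and Tnfsf10 held no match, which says only that these letters are not in them.

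Inflammatory mediators were lower in KO as well. Of 56 genes, 32 were detected, 8 (25.0%) were 1.5-fold lower and none was higher, against 1.10% and 0.476% of all detected genes, and the median was -0.28. Over all 55 measured members, 23 of them dim, 8 were 1.5-fold lower, beside 0.622% of all genes, and the median was -0.13. Of the 8, Nos2 and Cxcl2 passed as detected through the WT array alone, so their folds were at least 1.32 and 1.10. Acod1, which makes itaconate in activated macrophages, stood at 6.32 in WT control, 5.09 in KO control, 6.92 in WT fructose and 5.93 in KO fructose. Lif, a cytokine of the interleukin-6 family, stood at 6.47, 5.69, 6.95 and 6.11, and Ccl3, a chemokine for monocytes, at 5.49, 4.85, 7.24 and 6.40. All 3 were lower in KO in both media. Tnf stood at 5.95, 5.25, 5.79 and 5.91, so its difference was -0.70 without fructose and 0.13 with it. The acute phase genes, which hepatocytes secrete under interleukin-6, had a median of -0.11 with 16 of 20 below 0 and none at 1.5-fold. Hamp, the iron hormone hepcidin, was the lowest of them at -0.52.

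Markers of other liver cells moved with these groups. The Kupffer cell and macrophage list had 34 genes, all measured and 27 detected. Of those 27, 9 (33.3%) were 1.5-fold lower, against 1.10% of all detected genes, 26 were below 0, and the median was -0.36. Over all 34 members, 10 were 1.5-fold lower and the median was -0.28. The list's summed linear intensity was 10266 in WT control and 8469 in KO control, a ratio of 0.82, and 10650.3 and 10090.4 in fructose medium, a ratio of 0.95. The part of these cells in the interferon and inflammatory differences was not tested.

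The macrophage genes differed to unequal degrees. Among the defining Kupffer cell markers, Timd4, a receptor for dying cells, stood at 5.94 in WT control and 5.13 in KO control. Clec4f, a lectin of Kupffer cells, stood at 5.64 and 5.46, and Adgre1 (F4/80) at 4.62 and 4.44, below background on both control arrays. Vsig4 was also below background. C1qb, a chain of complement C1q, stood at 7.65 in WT control, 6.70 in KO control, 6.97 in WT fructose and 6.25 in KO fructose. Marco, a scavenger receptor, stood at 6.65, 5.93, 6.85 and 6.01. Fcgr1, the high-affinity IgG receptor, stood at 6.95, 5.70, 7.16 and 6.12, and Cd180, a receptor that tempers endotoxin signalling, at 5.93, 4.47, 5.11 and 4.37. In both media these 4 were lower in KO. Igsf6, a surface protein of myeloid cells, stood at 7.97, 6.74, 8.94 and 8.27. Csf1r, the macrophage growth factor receptor, differed little, at 5.45 in WT control and 5.4 in KO control, and Cd68, a lysosomal protein, stood at 11.04 and 11.12.

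Sinusoidal endothelial markers were lower as well, with fewer of them at 1.5-fold. Of 33 genes, all measured, 18 were detected, 2 (11.1%) were 1.5-fold lower, against 1.10% of all detected genes, and the median was -0.27, and over all 33 the median was -0.14. Their summed linear intensity was 1699.5 in WT control and 1334 in KO control, and 1550 and 1262 in fructose medium. Cdh5, the junction protein VE-cadherin, stood at 8.41 and 7.73 in control medium and at 8.13 and 7.78 in fructose medium. Dnase1l3, a DNase of these cells, stood at 5.71 and 5.07, and 5.92 and 5.04. Lyve1, a hyaluronan receptor, differed by -0.46 and Stab1, a scavenger receptor, by -0.27, while Stab2 and Clec4g lay below background. Cdh5 and Dnase1l3 were lower in KO in both media, whereas Oit3, a secreted protein of these cells, was at -0.48 without and 0.04 with fructose.

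Of the other cell types few markers were detected. Of 23 stellate cell and fibroblast genes 7 were, with none at 1.5-fold, 6 below 0 and a median of -0.28, which was 0.028 over all 23. Their summed intensity was 774 in WT and 699.5 in KO, and Dcn, the matrix protein decorin, was lowest at -0.50. Of the monocyte, neutrophil and dendritic cell list 4 of 19 measured genes were detected, with a median of -0.14, and of the lymphocyte list 2 of 19, Klrb1c at 0.06 and Nkg7 at -0.05. Of 14 measured cholangiocyte genes 5 were detected, with a median of -0.13, and 1 of 5 red cell and platelet genes was, Gp9 at 0.03.

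**Figure D5:**
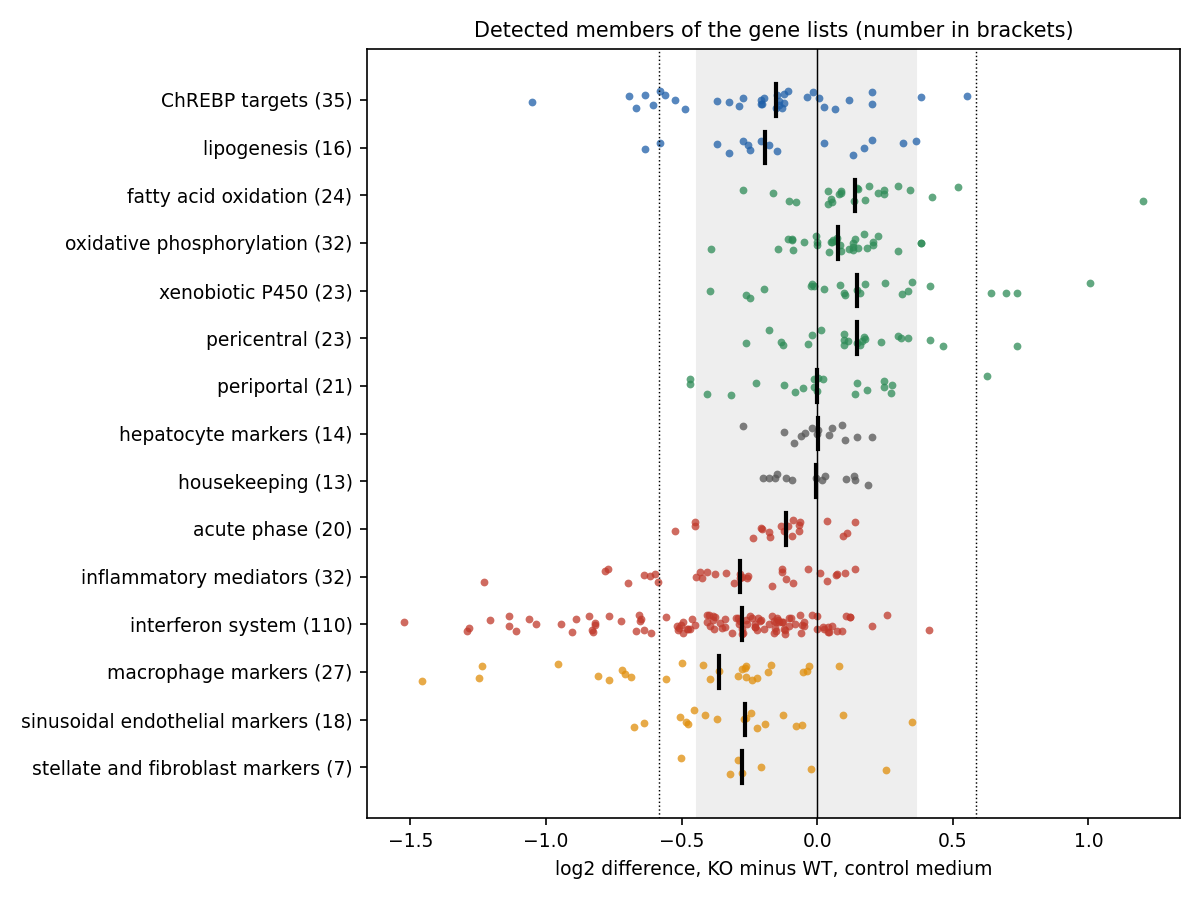
Each row is a gene list, each point a detected member and each black bar the list's median log2 difference KO minus WT in control medium, with the number of detected members in brackets and the central 95% of all detected genes in grey. Macrophage markers (-0.36), inflammatory mediators (-0.28), the interferon list (-0.28), stellate cell and fibroblast markers (-0.28) and endothelial markers (-0.27) lie to the left, and hepatocyte markers (0.00) lie at 0. With the dim members that are not drawn, the medians are -0.28 for macrophage markers, -0.13 for inflammatory mediators and -0.23 for the interferon list. They are then 0.028 for stellate cell and fibroblast markers and -0.14 for endothelial markers.

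On the higher side, the differences were smaller, and 5 of the 15 highest genes were cytochrome P450 enzymes. These 15 ran from 0.74 to 1.20, 6 of them were below background in WT, and 13 kept their sign in fructose medium, 7 of them at 1.5-fold. Cyp4a14, which hydroxylates fatty acids at the omega position and is a target of PPARA, stood at 4.53 in WT control, 5.73 in KO control, 4.99 in WT fructose and 6.43 in KO fructose, at least 1.96-fold higher without fructose. Cyp39a1, an oxysterol 7-alpha-hydroxylase of bile acid synthesis, stood at 4.30, 5.35, 4.22 and 5.35. In both media these 2 were near or below background in WT and above it in KO. Cyp2b10, the standard target of the nuclear receptor CAR, stood at 6.84, 7.84, 9.84 and 10.20, with a difference of 1.0 without fructose and 0.35 with it.

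Among the xenobiotic P450 enzymes and their receptors, 23 of 30 measured genes were detected. Of those 23, 4 (17.4%) were 1.5-fold higher, against 0.476% of all detected genes, none was lower, 16 were above 0, and the median was 0.15. Over all 30 the median was 0.10. The 4 were Cyp2b10, Cyp2c37 at 0.74, Cyp2a4 at 0.70 and Cyp2a5 at 0.64, which are members of families with similar sequences. Cyp2a5, a coumarin hydroxylase, stood at 7.49 in WT control, 8.13 in KO control, 6.53 in WT fructose and 7.96 in KO fructose. Cyp1a2, the hydroxylase of caffeine, differed by 0.42. The receptors themselves lay within the central range of all genes: Nr1i2 (PXR) was at 0.31 and Nr1i3 (CAR) at -0.26, with CAR near background.

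Genes of the pericentral zone, the downstream end of the lobule where many P450 enzymes are made, had a median of 0.15. Of 23 detected, 17 were above 0 and 1 was 1.5-fold higher, beside 48.0% and 0.476% of all detected genes. The list shares 8 genes with the P450 list. Oat, ornithine aminotransferase, differed by 0.47. Periportal genes had a median of 0.00, with Hsd17b6, a steroid dehydrogenase, at 0.62 and Fbp1, the gluconeogenic fructose bisphosphatase, at -0.47. Genes of fatty acid oxidation had a median of 0.14 with 20 of 24 above 0, beside the same 48.0%. Cyp4a14 was the 1 that was 1.5-fold higher, beside the same 0.476%, and it passed as detected through the KO array alone. Acot2, a mitochondrial thioesterase, differed by 0.52 and Acadm, the medium-chain acyl-CoA dehydrogenase, by 0.42. In fructose medium the median of that list was 0.04. Subunits of the respiratory chain had a median of 0.08 with 22 of 32 above 0, beside the same 48.0%, and none at 1.5-fold.

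Conjugating enzymes had a median of 0.03 over 29 detected genes, 13 of them below 0, and of -0.003 over all 32 measured. Of the 29, 3 (10.3%) were 1.5-fold higher, against 0.476% of all detected genes: Sult1a1 at 0.68, Gstm3 at 0.60 and Sult1c2 at 0.60. Sult1c2 lay below background in WT control, so its fold was only known to be at least 1.23. Bile acid genes had a median of 0.10 over 21 detected genes and of 0.005 over all 25 measured, 12 of which were below 0. Of the 21, 2 (9.52%) were 1.5-fold higher, Cyp39a1 and Abcc4, an efflux pump of bile acids and nucleotides, at 0.59. Cyp39a1 passed as detected through the KO array alone. Genes tied to loss of the hepatocyte state and to YAP had a median of 0.10 over 25, with 2 (8.0%) at 1.5-fold higher, beside the same 0.476%. Krt23, a keratin, stood at 5.61 in WT control, 6.40 in KO control, 6.75 in WT fructose and 6.98 in KO fructose, and S100a6, a calcium-binding protein, at 6.25, 6.85, 4.47 and 5.53. Both were higher in KO in both media.

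The remaining genes at either end belong to none of the large groups. Apela, a peptide ligand of the apelin receptor, was the lowest of all, at 5.47 in WT control, 3.74 in KO control, 5.41 in WT fructose and 4.0 in KO fructose, at least 1.63-fold lower without fructose. Moxd1, a monooxygenase related to dopamine beta-hydroxylase, barely passed background in WT control at 4.84 and lay at 3.78 in KO, so its fold was at least 1.06. Fezf1, a zinc finger factor of the nervous system, stood at 4.87, 5.78, 5.69 and 5.91. Exph5, an effector of RAB27, stood at 7.05, 7.85, 5.93 and 7.58, with a larger difference in fructose medium. Tpm2, a tropomyosin, stood at 6.19, 6.92, 4.19 and 5.47. It lay below background in WT fructose, so its fold there was at least 1.63, beside 1.67 without fructose. Nme1, a nucleoside diphosphate kinase, differed by 0.76 and 1.01 in the 2 media. It also lay below background in WT fructose, so its fold there was at least 1.40. Slc16a5, of the monocarboxylate transporter family, averaged 0.90, but its 2 probe sets read 0.48 and 1.32. Tox, Ttc12, Usp17ld, Cyp2j9 and Ripor2 complete the highest 15, at 0.83, 0.82, 0.81, 0.78 and 0.77. Tox, Cyp2j9 and Ripor2 lay below background in WT control, so their folds were at least 1.04, 1.37 and 1.04. Cyp2j9 and Ripor2 had the opposite sign in fructose medium, at -0.39 and -0.06.

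The fructose arrays give a second reading of the genotype difference from separate arrays. Of the 118 genes 1.5-fold lower without fructose, 106 were below 0 with it, beside 47.5% of the 10688 genes detected there, and 51 were again 1.5-fold lower, beside 2.86%. Of the 51 genes 1.5-fold higher, 45 were above 0, beside 52.5%, and 19 again 1.5-fold higher, beside 2.45%. No gene of the second group and 1 of the first, Duox2, was 1.5-fold different in the opposite direction. In the interferon list, 80 of 110 genes detected in fructose medium were below 0 there, beside the same 47.5%, and the list's median was -0.16. Of 109 detected in both media, 71 were lower in KO in both, and the matching share over all genes was not computed. Whether the 2 pairs of arrays are independent is not known, since the labels do not say whether the media were tested on cells of the same mice.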

How the data were processed

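Log2 expression values of the 4 arrays, 1 per genotype and medium, were analysed as the authors deposited them. RNA (400 ng per sample, per the labels) was read on 1-colour arrays that probe whole transcripts. The submitters' processing notes name RMA (robust multi-array average) and R 3.4.0. RMA makes the arrays' distributions alike, so a shift shared by all genes cannot be seen. The array's annotation and build are not stated in the labels or files used.

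Of 41345 probe sets, 25335 are in the platform's gene table, 23521 with 1 gene, 1814 with several and 16010 unlisted. By Entrez number 23328 were matched to RefSeq names (GRCm38.p6). Probe sets of a gene were averaged (1082 genes), which left 22180 genes. Promoters came from RefSeq, 300 bases around the start site, of which the 250 before it are printed. A fold against a dim side is given as "at least", against background. Differences, counts and medians were computed with Python 3.11.15 and pandas 2.3.3, and the counting was tested on simulated data.

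The members and the 35 lists (942 genes, 859 with a value, 40 only on several-gene probe sets, 43 not analysed here) were chosen with earlier results of these data known. Named were Mlxipl, the 15 lowest and 15 highest detected genes (no predicted genes, small RNAs or sensory receptors), up to 5 detected members per list with the largest difference, the first 3 markers of marker lists, and named genes of opposite sign in fructose medium. Any other member named was picked with its values in view. The alternatives tried were median centring, quantile normalization, loess (span 0.3), the brightest probe set, no filter, a filter 1 log2 unit higher, values raised to background, the 99th percentile as background, the mean, and lists without their most different member.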

Additional observations from a re-analysis of the deposited data

Results flagged for a closer look

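Duox2, an NADPH oxidase that makes hydrogen peroxide, was lower in KO by 0.61 in control medium (-0.61, from 6.97 in WT to 6.35 in KO) and higher by 1.02 in fructose medium (6.62 in WT and 7.65 in KO). The arrays of the 2 media moved in opposite ways, and with 1 array a group the difference between the media was not tested.

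Probe sets outside the gene counts also held large differences. Of 820 detected probe sets that list several genes, 2 were 2-fold lower and 1 was 2-fold higher in KO control. Of 4634 detected probe sets with no gene listed, 45 were 2-fold lower and 51 were 2-fold higher, together 2.07%, beside 0.196% and 0.0373% of named genes. What these probe sets measure was not analysed here.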

How the results depend on the processing

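Every value rests on 1 array a side, so no array could be left out. No paired analysis was possible because each group has 1 array. Centring, quantile normalization and loess kept every count within 1.5 times of the reported one. The count of genes 2-fold higher, 4 as reported, was 1 with a filter 1 log2 unit above background, 1 with values raised to background and 1 with the 99th percentile as background, and the count 1.5-fold higher, 51 as reported, was 32 under the stricter filter and 32 with the 99th percentile. With no filter on dim genes the median of inflammatory mediators was -0.13, that of endothelial markers -0.14, and that of stellate cell markers turned from -0.28 to 0.028. With the stricter filter the macrophage median was -0.62 and the endothelial -0.48, and the mean of the macrophage list was -0.48. Over the alternatives the median ranged from -0.36 to -0.23 for the interferon list, -0.21 to -0.14 for ChREBP targets, and 0.10 to 0.19 for xenobiotic P450 enzymes. For 192 named genes under 5 settings, 932 of 960 values moved by no more than 0.110, the median absolute difference of detected genes, 28 moved by more and 0 turned sign. Array signal limits the dim genes, for which only a bound on the fold is known.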

Other observations

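Several lists not described above had medians near that of all detected genes (-0.01) in control medium. Clock genes had a median of 0.07, ER chaperones 0.03, gluconeogenesis 0.03, heat shock genes 0.01, housekeeping genes -0.00, NRF2 targets -0.02, complement and coagulation factors -0.05, cholesterol synthesis -0.05, cell cycle genes -0.07 and hepatocyte transcription factors -0.08. Pentose phosphate and NADPH genes lay lower, at -0.13 with 6 of 8 below 0, and the 1 that was 1.5-fold lower was Me1, which is also a ChREBP target. ER chaperones, which fold secreted proteins, stood apart between the media, with a median of -0.40 in fructose medium. Sdf2l1, a chaperone partner in that compartment, stood at 6.06 in WT control, 6.58 in KO control, 10.10 in WT fructose and 9.67 in KO fructose. Immediate early genes had a median of -0.07, and Egr1, a factor induced within minutes by growth signals, stood at 8.77 in WT control, 8.14 in KO control, 9.42 in WT fructose and 8.54 in KO fructose. Among integrated stress response genes, with a median of -0.09, Ddit4, an inhibitor of mTORC1, was at -0.66.

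Left out by the naming rule, 3 predicted or small RNA genes passed 2-fold: Gm4841 at -1.68 (at least 2.07-fold lower), 9930111J21Rik2 at -1.07 with 0.20 in fructose medium, and Mirlet7a-1 at 1.12 (at least 1.63-fold higher). They were chosen for mention after their values were seen.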
